A study of Mus musculus with 12 samples.

Results

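The contacts of the Isl1 promoter on chromosome 13 were examined by CaptureC in mouse embryonic stem cells (ESCs). In CaptureC, chromatin is crosslinked, cut and religated, and the ligation partners of 1 captured fragment, the bait, are counted by sequencing. The members were all interactions of the Isl1 bait in the deposited table, chosen by the position of the bait fragment and not by any measured level. They number 10 of 842 interactions, and 4 of them overlap a site where RING1B and PCGF2 were both present (a PCGF2 site), whereas 6 do not (other sites).

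The 4 groups, each pooled from 3 replicates, were compared in E14 cells. PRC1CPM cells, a line given in the labels as clone 41, carry Ring1aI50A/D53K on both sides of the comparison and a Ring1b(WT->I53A/D56K)fl/fl allele with Rosa26::ERT2-Cre. They were untreated or received 800 nM hydroxytamoxifen (OHT) for 72 h, which switches Ring1b to the catalytically inactive form. The untreated group received no OHT, so that the agent and the switch cannot be told apart. PRC1DEG cells (Tir1; Ring1a-/-; Ring1bAID) and a Control line that carries Tir1 alone both received 0.5 mM auxin for 6 h, which degrades RING1B in PRC1DEG cells. Control cells keep Ring1a, so that loss of Ring1a and degradation of RING1B cannot be told apart in this comparison. The auxin experiment was separate from that in PRC1CPM cells, and levels are compared only within each. No expression data were analysed here, so the labelled cell type was not checked against marker genes.

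Isl1 encodes a LIM-homeodomain transcription factor of motor neurons, cardiac progenitors and the endocrine pancreas, and it is kept silent in ESCs as a Polycomb target. Polycomb repressive complex 1 (PRC1) ubiquitylates histone H2A through RING1A or RING1B. PCGF2 is a subunit of canonical PRC1, though not of that form alone. Canonical PRC1 binds chromatin carrying H3K27me3 and it can hold distant Polycomb domains together in the nucleus. Many such domains lie over stretches rich in CpG dinucleotides.

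The bait fragment lies at chr13:116309582-116310637 (1056 bp, mm10) and covers the transcription start site (TSS) of Isl1, which is read from the minus strand. It overlaps a PCGF2 site itself. The capture oligonucleotide at its right end, chr13:116310522-116310641, lies outside the untranslated region and is shown because it is 1 of the pair that captured the bait, of which the other overlaps the untranslated region. Below it stand the most CpG-rich 200 bases outside protein-coding exons of 3 contacts at PCGF2 sites. They are shown because CpG density varied widely among these contacts. Those of the other-site contact that lies 6.44 kb from the PCGF2-site contact with most reads follow. Sequences are from GRCm38.p6, plus strand, with each CG in capitals.
Right oligonucleotide of the Isl1 bait: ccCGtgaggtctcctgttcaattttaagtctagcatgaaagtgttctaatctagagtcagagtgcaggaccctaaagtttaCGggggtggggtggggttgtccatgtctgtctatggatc
Fst contact, chr13:114459008-114459207: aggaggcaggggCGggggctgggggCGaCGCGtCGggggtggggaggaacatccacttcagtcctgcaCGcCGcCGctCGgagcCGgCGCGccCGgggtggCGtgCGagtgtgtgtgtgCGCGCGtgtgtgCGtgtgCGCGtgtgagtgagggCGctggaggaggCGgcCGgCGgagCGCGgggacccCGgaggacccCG
Intergenic contact at +401 kb, chr13:116705685-116705884: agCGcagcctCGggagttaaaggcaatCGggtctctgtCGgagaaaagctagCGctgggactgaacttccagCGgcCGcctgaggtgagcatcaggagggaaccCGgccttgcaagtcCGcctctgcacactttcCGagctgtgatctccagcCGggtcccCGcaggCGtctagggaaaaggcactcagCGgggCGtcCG
Contact upstream of Parp8, chr13:117026437-117026636: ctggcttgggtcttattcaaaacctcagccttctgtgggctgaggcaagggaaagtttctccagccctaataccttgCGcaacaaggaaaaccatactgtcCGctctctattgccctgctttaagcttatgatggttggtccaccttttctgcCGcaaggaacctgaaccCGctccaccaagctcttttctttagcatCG
Other-site contact at +388 kb, chr13:116697782-116697981: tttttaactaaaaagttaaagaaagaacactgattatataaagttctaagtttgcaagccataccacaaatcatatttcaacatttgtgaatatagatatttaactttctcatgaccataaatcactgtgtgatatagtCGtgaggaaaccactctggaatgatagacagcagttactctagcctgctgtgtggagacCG

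The window at Fst holds 29 CpGs and begins 57 bases upstream of the Fst TSS. The intergenic window at +401 kb holds 16 CpGs, that upstream of Parp8 holds 5, and that of the neighbouring other-site contact holds 2.

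All values rest on few reads. The steps between the deposited values gave the value of 1 weighted read, and over its 10 contacts the Isl1 bait had 506 reads in untreated PRC1CPM cells against 270 with OHT, and 424 in Control against 214 in PRC1DEG cells. Each group has 1 pooled value, so no difference had a replicate check and no p-value is given. Ratios are given for OHT over untreated cells (with OHT) and for PRC1DEG over Control cells (on degradation). They are followed by 95% intervals in parentheses, converted from Wilson intervals of the treated share. They use no pseudocount and take each weighted read, from merged replicates, as 1 independent count. They do not cover the spread between replicates, and the reads have no molecular identifiers. Every Isl1 contact entered the table through a CHiCAGO score of at least 5 in 1 or more groups, so that it had to be high in at least 1 of them. The CHiCAGO score rises as the reads on a fragment exceed those expected from its distance to the bait.

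At PCGF2 sites, all 4 Isl1 contacts had fewer normalised reads after OHT and all 4 had fewer in PRC1DEG than in Control cells. Of 126 such contacts of the other named baits, those listed with a gene, 118 were lower after OHT and 125 in PRC1DEG cells. Over all 842 contacts the counts were 621 and 423, so that 4 of 4 does not set Isl1 apart. Summed over the 4 Isl1 contacts, 59.3% of the normalised reads were left with OHT (50.5 to 69.6%) and 42.7% on degradation of RING1B (35.9 to 50.9%). Of the 4, only that at +401 kb reached a score of 5 in a treated group. The others entered the table through reference groups alone, and the part of this selection in the sums was not tested. The contacts join Isl1 to Fst, to an intergenic region and to both sides of the Parp8 promoter. The summed log2 ratio in the auxin experiment minus that with OHT was -0.47 (-0.81 to -0.13). For the 126 contacts of the other named baits at PCGF2 sites it was -0.69. That sum weighs baits by their reads, and Hoxb3 alone held 13014 of its 41100 reads in untreated cells.

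The most distant contact, 1850 kb to the left of the bait, covers the promoter and the first part of Fst, which encodes follistatin, a secreted antagonist of activin. It spans 14 DpnII fragments (chr13:114455644-114464513), with coding and untranslated sequence of Fst and an exon of the antisense transcript Gm47040. Its summit fragment, as marked in the deposited table, begins 4.08 kb upstream of the Fst TSS. It had 70 reads in untreated cells against 22 with OHT, and 58 in Control against 16 in PRC1DEG cells, or 78.1, 26.8, 99.2 and 25.0 normalised reads x 1000. Both treated groups lay below their references. This contact entered the table through those 2 reference groups alone, and the part of this selection in the falls was not tested. The log2 ratio was -1.54 with OHT (-2.23 to -0.86) and -1.99 on degradation (-2.78 to -1.20). The summit score went from 5.56 to 1.21 after OHT, and degradation of RING1B left 0 against 7.59 in Control.

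The contact with the most summed reads and the highest summit score in every group lay 401 kb to the right of the bait. It is in an intergenic region, 308 kb from the nearest protein-coding TSS, that of Parp8. It spans 26 fragments and 13.3 kb (chr13:116704541-116717809). It had 330 reads in untreated cells against 200 with OHT, and 317 in Control against 161 in PRC1DEG cells. These were 368, 244, 542 and 252 normalised reads x 1000. Per fragment it had 14.2 in untreated cells, below 19.0 at +388 kb and 15.6 at +717 kb. In Control it had 20.9 per fragment, below 27.4 at +717 kb. With OHT and in PRC1DEG cells it was the highest per fragment as well (9.38 and 9.69). Of all reads on Isl1 contacts, 65.2% fell here in untreated cells (Wilson interval 60.97 to 69.2%) and 74.1% with OHT (68.5 to 78.9%). The share was 74.8% in Control (70.4 to 78.7%) and 75.2% in PRC1DEG cells (69.0 to 80.5%). Most of the other Isl1 contacts entered the table through untreated PRC1CPM cells alone. The part of this selection, and that of the 26 fragments, in the shares was not tested. The log2 ratio was -0.59 with OHT (-0.85 to -0.34) and -1.11 on degradation (-1.38 to -0.83). The difference between these ratios, PRC1DEG minus OHT, was -0.51 with a counting interval from -0.88 to -0.14.

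This region was the one Isl1 contact with a summit score of at least 5 in all 4 groups (9.41 untreated, 7.51 with OHT, 14.6 in Control and 6.44 in PRC1DEG cells). Among the 130 contacts of named baits at PCGF2 sites, its score, counted from the highest, ranked 27 without OHT and 4 with it, and in the auxin experiment 14 in Control against 2 in PRC1DEG cells. Its summit fragment (chr13:116710412-116711550) had 28 reads before and 26 after OHT, a log2 ratio of 0.02 (-0.74 to 0.78), whereas it had 34 reads in Control against 18 in PRC1DEG cells, a ratio of -1.05 (-1.86 to -0.23). A change of the summit fragment after OHT was not detectable at this depth.

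The remaining 2 contacts lay 3.14 kb apart around the promoter of Parp8, a gene of the poly(ADP-ribose) polymerase family. One lies in an intron of Parp8, 2.35 kb from its TSS and 713 kb from the bait (chr13:117022563-117023045). It had 12 reads in untreated cells against 3 with OHT, and 7 in Control against 3 in PRC1DEG cells. Its log2 ratios were -1.87 with OHT (-3.59 to -0.15) and -1.35 on degradation (-3.18 to 0.48). It was called in untreated PRC1CPM cells alone, so the fall after OHT starts from the group that let it into the table, and the part of this selection was not tested. Its summit score was 5.92 and 0 before and after OHT, and 3.12 and 0.318 in Control and PRC1DEG cells. At these counts the second difference was not detectable.

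The other lies 0.668 kb upstream of the nearest Parp8 TSS and 717 kb from the bait (chr13:117026190-117027085). It had 14 reads in untreated cells against 6 with OHT, and 16 in Control against 6 in PRC1DEG cells. Its log2 ratios were -1.09 with OHT (-2.43 to 0.24) and -1.54 on degradation (-2.85 to -0.24). Its score was 7.27 and 2.52 before and after OHT, and 10.2 and 2.32 in Control and PRC1DEG cells. The treated groups were the lower ones in both experiments, but the interval after OHT included 0. This contact too was called in the 2 reference groups alone, and the part of this selection was not tested.

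**Figure D1:**
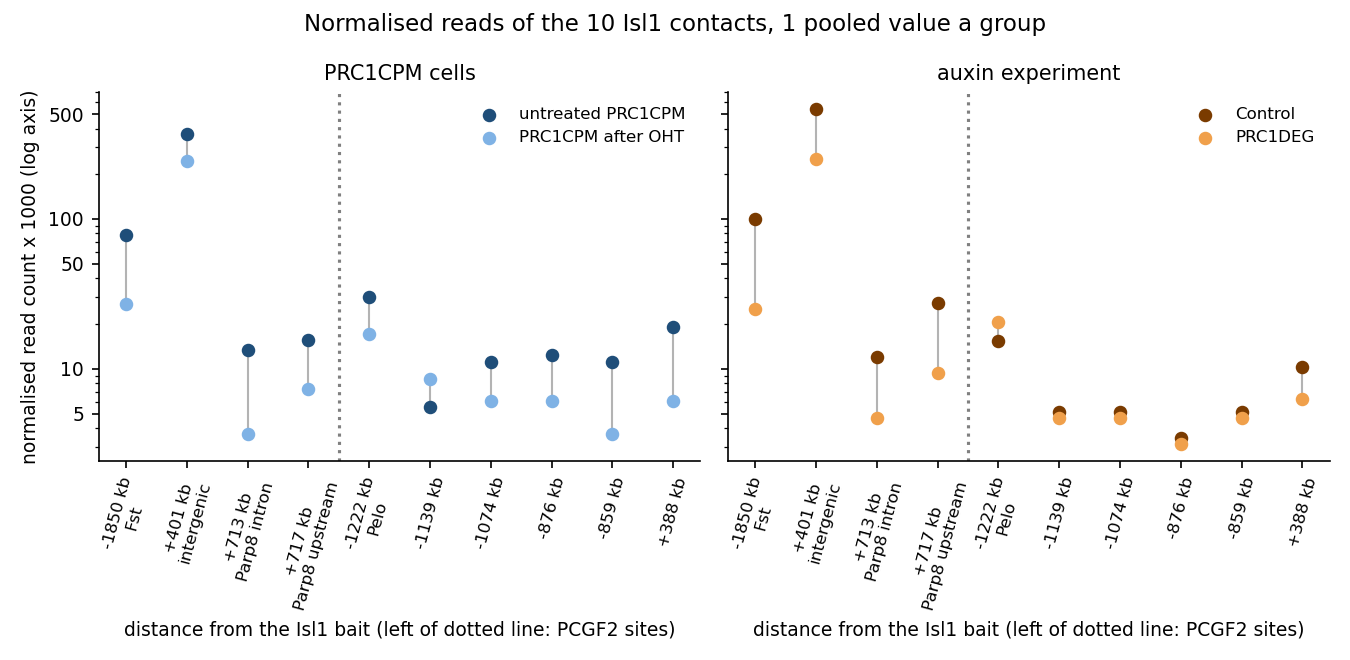
Normalised read count x 1000 (log axis) of each Isl1 contact, with 1 pooled value per group, for PRC1CPM cells on the left and the auxin experiment on the right. The 4 contacts at PCGF2 sites were lower in both treated groups. As a sum over its 26 fragments, the intergenic contact at +401 kb was the highest in every group (368, 244, 542 and 252).

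Over the 4 contacts at PCGF2 sites the median log2 change was -1.22 with OHT and -1.40 between PRC1DEG and Control cells, computed from mean normalised reads per fragment plus 0.00035, the lowest value above 0 in the table. The contact at +401 kb weighs most in any sum. Without it, 35.3% of the reads were left after OHT (log2 ratio -1.50, interval -2.08 to -0.92) and 28.2% in PRC1DEG cells (log2 ratio -1.82, interval -2.47 to -1.18). The contacts in these 2 sums entered the table through reference groups alone, and the part of this selection in the lower values was not tested. The median over the contacts of the PRC1DEG change minus the OHT change was -0.43, and 3 of the 4 contacts had this sign. Of the 126 contacts of the other named baits at PCGF2 sites, 108 had it, with a median of -0.76. Over all 842 contacts, 311 had it, with a median of 0.16. Of the single Isl1 contacts, that at +401 kb had the only interval of this difference without 0.

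**Figure D2:**
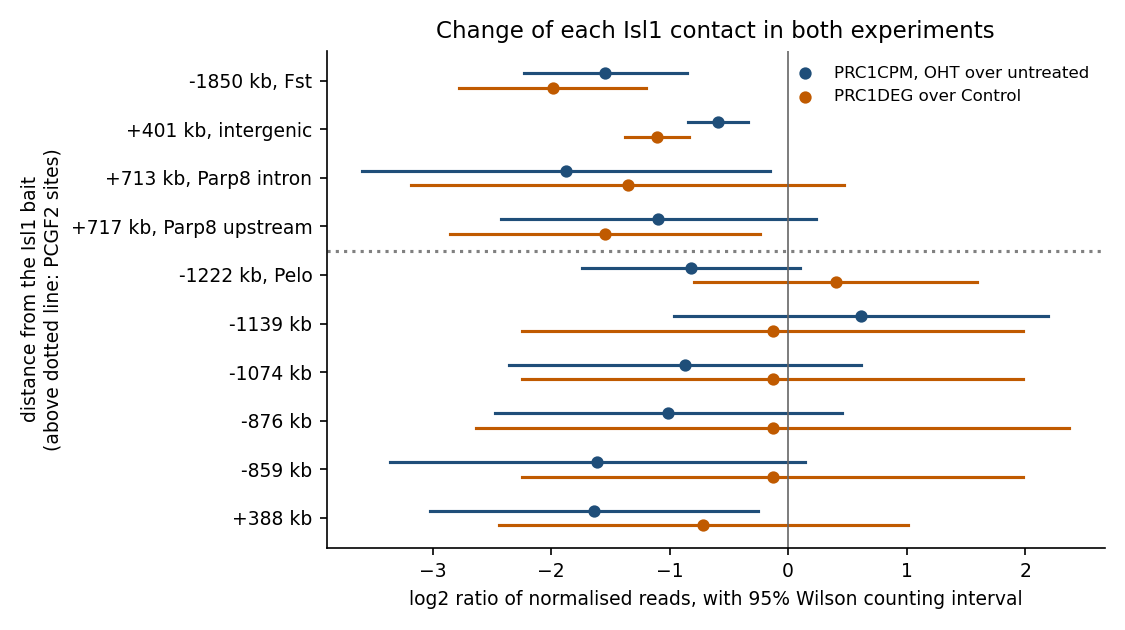
Log2 ratio of normalised reads for each Isl1 contact (points) with its 95% Wilson counting interval (lines), for OHT over untreated PRC1CPM cells and for PRC1DEG over Control cells. At PCGF2 sites all ratios lie below 0, from -1.99 to -0.59, but the intervals at +717 kb with OHT and at +713 kb on degradation include 0. At other sites 5 of 6 ratios lie below 0 in each experiment, and most intervals include 0. Of those in the auxin experiment, only that at +388 kb had fewer reads in PRC1DEG cells (4 against 6). The others had equal reads in both groups, and their ratio of -0.13 reflects only the value of 1 read.

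Set against a 2-fold threshold on the same scale as the medians, 3 of the 4 Isl1 contacts at PCGF2 sites were lower after OHT, where 46.0% of the 126 contacts of the other named baits at PCGF2 sites and 12.4% of all 842 contacts were. In PRC1DEG cells 4 of 4 were lower, against 76.2% of the 126 and 14.1% of all contacts. With a pseudocount 10 times larger the counts of 3 and 4 were 1 and 2, for which no matching share over the other contacts is given. With 4 contacts, these counts do not set Isl1 apart from the other baits. The median over the 126 contacts was -0.88 with OHT and -1.83 in the auxin experiment. All contacts of the table outside PCGF2 sites had medians of -0.19 and 0.07, and relative to these the Isl1 medians at PCGF2 sites were -1.03 and -1.47.

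Among the 22 named baits with contacts at PCGF2 sites, the Isl1 median ranked 5 with OHT and 15 in the auxin experiment, counted from the lowest. Its nearest neighbours were Dmbx1 (-1.32) and Sp5 (-1.22) after OHT and Hoxb2 (-1.44) and Pax7 (-0.90) in PRC1DEG cells. These are medians of 3 to 8 contacts for each of those baits, and their order carries no test. In the auxin columns Isl1 belongs to a set of 25 baits, 6 of them named, that share a value of 1 read. The 12 contacts at PCGF2 sites of the other named baits in that set had medians of -0.87 with OHT and -1.99 in the auxin experiment.

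**Figure D3:**
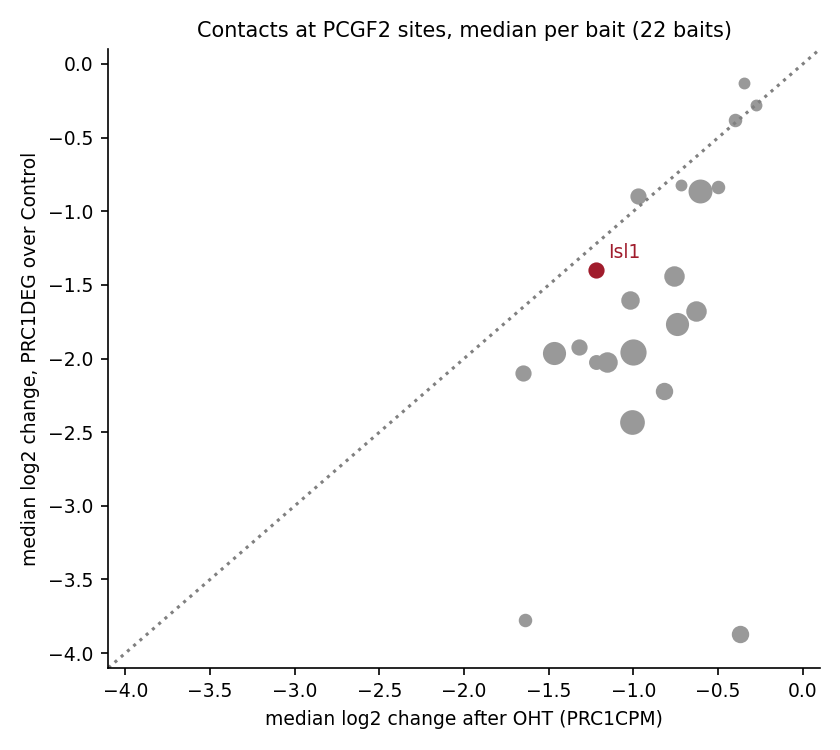
Median log2 change of contacts at PCGF2 sites for each of 22 named baits, after OHT (horizontal axis) and in PRC1DEG over Control cells (vertical axis), with point area growing with the number of contacts and the dotted line marking equal changes. Isl1, in red, lies at -1.22 and -1.40, close to that line and below it.

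At other sites, the Isl1 contacts had few reads. Summed over the 6, 53.3% of the normalised reads were left with OHT (80 and 39 reads, log2 ratio -0.91, interval -1.46 to -0.36). In the auxin experiment 98.5% were left (26 and 28 reads, log2 ratio -0.02, interval -0.78 to 0.74). In Control 0 of the 6 reached a score of 5 (median summit score 0.43), so a fall could hardly have been seen there. The difference between the experiments, PRC1DEG minus OHT, was 0.89 with an interval from -0.05 to 1.82 that includes 0. The median log2 change was -0.90 with OHT and -0.12 in the auxin experiment. The value of -0.12 comes from contacts with equal reads in both auxin groups. There only the value of 1 read differs (0.00156 in PRC1DEG cells against 0.00171 in Control). The 278 contacts of the other named baits at other sites had medians of -0.17 with OHT and 0.09 in the auxin experiment. Of the 6 contacts, 5 had entered the table through their score in untreated PRC1CPM cells alone and 1 through its score after OHT alone. The part of this selection in the fall after OHT was not tested.

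The other-site contact with most reads in untreated cells lies 1222 kb to the left (chr13:115086898-115090191, 7 fragments) over the promoter, coding and untranslated sequence of Pelo, which encodes a ribosome rescue factor and lies within the gene of integrin alpha 1, Itga1. It had 27 reads in untreated cells against 14 with OHT, and 9 in Control against 13 in PRC1DEG cells. The log2 ratios were -0.82 with OHT (-1.74 to 0.10) and 0.40 on degradation (-0.79 to 1.59), so that neither difference was detectable.

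The other-site contact at +388 kb (chr13:116697520-116698098) is intergenic and lies next to the strong contact at +401 kb. It had 17 reads in untreated cells against 5 with OHT, and 6 in Control against 4 in PRC1DEG cells. Its log2 ratios were -1.64 with OHT (-3.02 to -0.25) and -0.71 on degradation (-2.44 to 1.01). It was the one other-site contact whose interval after OHT did not include 0. It was called in untreated PRC1CPM cells alone, with a summit score of 5.04. The fall after OHT thus starts from the group that let it into the table. The contact at -859 kb (chr13:115450169-115451522) went from 10 to 3 reads after OHT, a ratio of -1.61 (-3.36 to 0.14), and had 3 reads in both auxin groups. This contact too was called in untreated PRC1CPM cells alone. The part of this selection in the falls at -859 and +388 kb was not tested.

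The remaining 3 other-site contacts are intergenic as well. That at -876 kb (chr13:115433845-115435340) had 11 and 5 reads before and after OHT and 2 in both auxin groups. That at -1074 kb (chr13:115234833-115237471) had 10 and 5 reads before and after OHT and 3 in both auxin groups. That at -1139 kb (chr13:115170680-115171642) had 5 reads before and 7 after OHT and 3 in both auxin groups, and it was the one Isl1 contact with more reads after OHT. None of their intervals excluded 0.

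By the 2-fold threshold, 2 of the 6 other-site contacts were lower after OHT (those at -859 and +388 kb, with that at -876 kb just short of it at -0.97), where 4.68% of the 278 other-site contacts of the other named baits were. In PRC1DEG cells 0 of 6 were lower, against 3.96% of the 278. No contact at other sites was 2-fold changed in the same direction in both experiments.

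A summit score of at least 5 was reached by 4 of the 4 Isl1 contacts in untreated cells (65.1% of the 126 contacts of the other named baits), 1 of 4 after OHT (11.1%), 3 of 4 in Control (52.4%) and 1 of 4 in PRC1DEG cells (1.59%). Over all 842 contacts the shares were 58.8% in untreated cells and 33.6% with OHT, and 20.1% in Control and 17.9% in PRC1DEG cells. The Isl1 contact that kept its call in both treated groups was that at +401 kb. At other sites it was reached by 5 of 6 in untreated cells (61.5% of the 278), 1 of 6 after OHT (38.8%), 0 of 6 in Control (10.1%) and 0 of 6 in PRC1DEG cells (10.8%). All 10 Isl1 contacts and 834 of all 842 passed the threshold in at least 1 group, which is how the table was made, so these shares depend in part on which group let a contact in. The median of the mean score per fragment at PCGF2 sites was 4.88 in untreated cells against 1.36 with OHT, and 4.17 in Control against 1.06 in PRC1DEG cells. By this mean score, 2 of the 4 reached the threshold in untreated cells, 1 in Control and 0 in both treated groups. Shares over the other contacts are not given for the mean score.

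**Figure D4:**
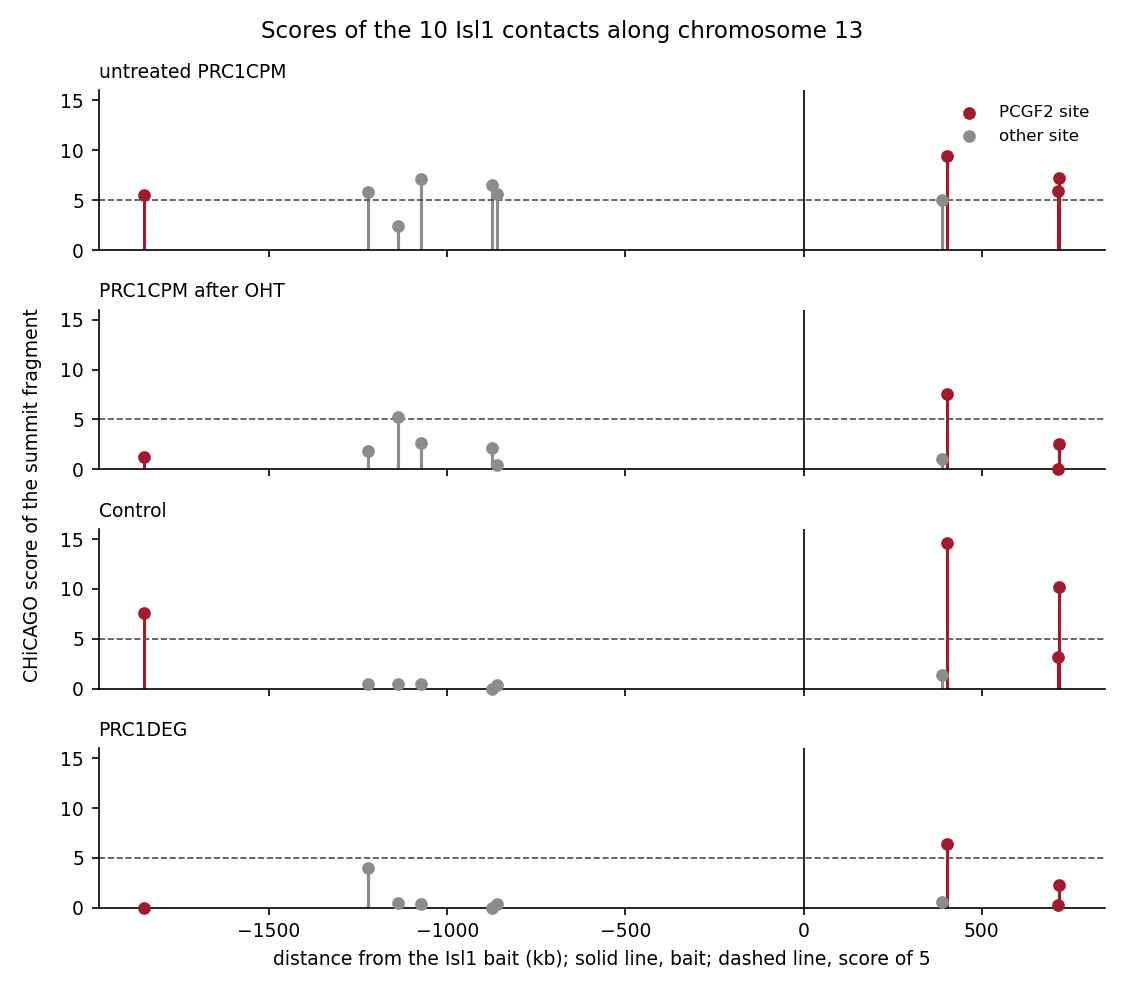
CHiCAGO score of the summit fragment of each Isl1 contact against its distance from the bait in kb, with 1 panel per group, PCGF2 sites in red, other sites in grey and a dashed line at the score of 5. The contact at +401 kb stands above the line in all 4 panels, and the other-site contacts reach at most 1.37 in Control and 3.95 in PRC1DEG cells.

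The 4 contacts at PCGF2 sites lay 401 to 1850 kb from the bait, 1 to the left and 3 to the right, and the 6 at other sites lay 388 to 1222 kb away, 5 to the left and 1 to the right. No contact lay nearer than 388 kb. The 10 contacts fall over few genes. A protein-coding TSS lay inside 2 of them, those over Fst and Pelo. Of 10 genes near Isl1 on chromosome 13, 3 had a TSS inside or within 5 kb of a contact (Fst, Pelo and Parp8). Of 20 further developmental genes of chromosome 13, 0 had one, but the nearest of them, Fgf10, starts 1688 kb from any contact, so both counts follow from the choice of genes.

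CpG density varied widely among the contacts at PCGF2 sites. The most CpG-rich 200 bases held 38 CpGs in the Fst contact, 16 in the intergenic one at +401 kb, 5 in that upstream of Parp8 and 3 in that in the Parp8 intron, a median of 10.5. The other named baits had a median of 22 over their 126 contacts at PCGF2 sites. At least 10 CpGs were found in 2 of the 4 Isl1 contacts and in 73.0% of the 126. At other sites the Pelo contact held 24 CpGs and the other 5 held 2 to 4, beside a median of 6 and a share of 20.5% with at least 10 over the 278 contacts of the other named baits. The 2 CpG-poor contacts at PCGF2 sites span 1 fragment each and lie close to the Parp8 promoter. The contacts at Fst and +401 kb are the widest of the 10 (8.87 and 13.3 kb), and the part of width in these counts was not tested.

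**Figure D5:**
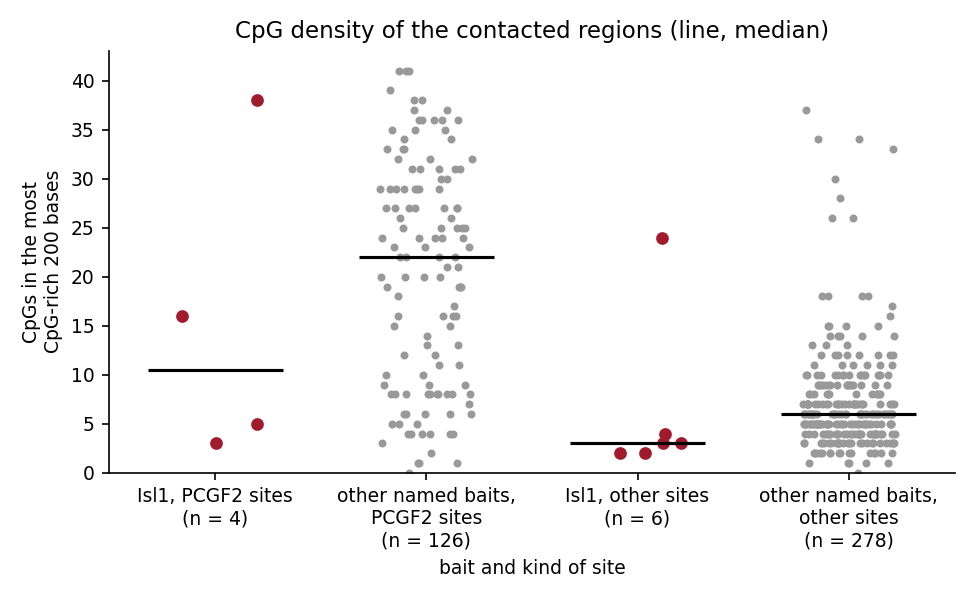
Number of CpGs in the most CpG-rich 200 bases of each contacted region, for Isl1 (red) and the other named baits (grey) at PCGF2 sites and at other sites, with black lines at the medians. The Isl1 contacts at PCGF2 sites range from 3 to 38, beside a median of 22 for the other baits.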

How the data were processed

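CaptureC was performed in 12 samples (4 groups of 3 replicates). The authors aligned paired-end reads with HiCUP and Bowtie2 (mm10, per the submitters' processing notes) with a fragment filter of 100 to 800 bp and obtained weighted reads and scores with CHiCAGO on merged replicates. The versions of HiCUP and CHiCAGO are not given in the sources used here. Fragments scoring 5 or more in any sample were joined into contacts. The deposited signal values are weighted reads, scaled for library size at the baits and for the size of the bait panel. The deposited scores, also from CHiCAGO, are given as a sum over fragments and for the summit fragment.

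Positions were checked against GRCm38.p6. All 24 bait fragments began with the DpnII site, and all 48 oligonucleotides matched. Genes came from GENCODE M21. At a tolerance of 0.1, 100% of values were whole reads in each column. In the auxin columns 2 read values were present, and 19 baits had the other one. Log2 changes used means per fragment plus the pseudocount. Scripts (Python 3.11.15, numpy 2.4.6, pandas 2.3.3) were tested on simulated data. Without replicate columns no test was run. The alternatives were pseudocount, floor, filter, centring, summary, fold and score threshold. Members, gene lists and tests were chosen with earlier results of these data known. Contacts at PCGF2 sites, the 5 other-site contacts with most untreated reads and baits next to Isl1 in median change were to be named. The contact at -1139 kb was named for completeness after its values were seen.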

Additional observations from a re-analysis of the deposited data

How the results depend on the processing

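No paired analysis was possible because the deposited columns pool the 3 replicates of a group, and leaving out each replicate could not be run for the same reason. With a pseudocount 10 times larger, the median change of the Isl1 contacts at PCGF2 sites was -0.78 after OHT and -0.96 in PRC1DEG cells, with 1 and 2 contacts at least 2-fold lower. The ratio of summed normalised counts after OHT was -0.75, since the contact at +401 kb holds most reads. At the changed settings, shares over the other contacts are not given, so the counts describe Isl1 alone. With a 1.5-fold threshold, 5 other-site contacts were lower after OHT and 1 in PRC1DEG cells. At a score threshold of 10, 2 contacts at PCGF2 sites were called in Control against 0 in PRC1DEG cells, and 0 in PRC1CPM cells with or without OHT. By the mean score over fragments, 2 contacts at PCGF2 sites were called in untreated cells against 0 with OHT, and 1 in Control against 0 in PRC1DEG cells. Median summit scores there were 6.59 untreated and 1.87 with OHT, and 8.88 in Control against 1.32 in PRC1DEG cells. The cause was not tested. Of 69 alternative values for the medians, counts and the difference between experiments, 51 were labelled unmoved and 0 reversed. A count was unmoved within 1.5 times the main count. A median at PCGF2 sites was unmoved if it shifted from the main median by at most 0.23 (OHT) or 0.25 (auxin experiment). At other sites these limits were 0.55 and 0.76. They were taken from the width of the summed ratio's counting interval but set around the median. The alternative differences lay inside the interval of the summed difference (-0.81 to -0.13). For the single contacts at PCGF2 sites 30 of 32 stayed within their interval, and the Fst contact was -0.75 and -1.002 with the larger pseudocount. The alternatives without a pseudocount and centred within the bait set were added after seeing the data. Contacts under about 15 reads have wide intervals, and depth limits any statement on them.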
